A study of Mus musculus with 6 samples.

Results

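Apolipoproteins are the protein parts of the particles that carry fat and cholesterol in blood, and 10 of their genes were followed here in RNA of mouse Hepa1-6 tumors from control and sorafenib (Sora)-treated animals. The members were found by exact gene symbol. Of the 10 symbols (Apoa1, Apoa2, Apoa4, Apob, Apoc1, Apoc2, Apoc3, Apoe, Apoh, and Apom), 9 were found among the 26167 genes of the tables, and Apoa4 was not analysed here. Of the 9 genes, 6 (Apoa1, Apoa2, Apob, Apoc1, Apoc2, and Apoe) had at least 10 reads in at least 3 tumors and were tested with the 16513 genes that passed this filter. Apoc3, Apoh, and Apom did not pass it.

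Hepa1-6 is a mouse hepatoma cell line. The cells were injected subcutaneously into female C57BL/6J mice of 6 to 8 weeks, and Sora, an inhibitor of several kinases, was given ip at 10 mg/kg on days 9, 11, 13, and 15. The 3 control tumors (numbered 1, 3, and 4) and the 3 Sora-treated tumors (numbered 2, 3, and 4) differed in treatment alone according to the labels, which name the tissue Hep1-6 and give no agent for the control. Each tumor gave 1 RNA-seq library. All tumors came from a single cell line grown under the skin and not in the liver, and host macrophages, lymphocytes, fibroblasts, and vessels were sequenced along with the tumor cells. In such bulk samples, a change in the number of cells of a type and a change in RNA per cell cannot be told apart. The labels do not say which tumors came from separate mice, so p-values measure only the spread between these samples.

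The liver makes most circulating apolipoproteins. ApoB wraps very-low-density and low-density lipoprotein (VLDL and LDL) and stays with one particle for life, while ApoA1 and ApoA2 build high-density lipoprotein (HDL), and ApoE and the small ApoC proteins move between particles and set how they are trimmed by lipases and taken up by receptors. Macrophages also make ApoE. Many hepatocyte genes, apolipoprotein genes among them, are under the control of HNF4α, a nuclear receptor that binds direct repeats with CAAAG at their core.

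Some of the genes lie in clusters. Apoe, Apoc1, Apoc4, and Apoc2 are neighbors on chromosome 7, and Apoa1, Apoc3, Apoa4, and Apoa5 are neighbors on chromosome 9. Windows of 250 bases at the RefSeq start of 2 members are shown (GRCm38.p6, plus strand, 5′ to 3′), because Apoa1 and Apob had the largest log2 fold changes and their levels ranked the tumors differently. Capitals mark matches to CAAAGNNC, taken as the core of an HNF4-type element, and to TATAAA, the TATA box, both searched on either strand.
Apoa1, chr9:46228380-46228629: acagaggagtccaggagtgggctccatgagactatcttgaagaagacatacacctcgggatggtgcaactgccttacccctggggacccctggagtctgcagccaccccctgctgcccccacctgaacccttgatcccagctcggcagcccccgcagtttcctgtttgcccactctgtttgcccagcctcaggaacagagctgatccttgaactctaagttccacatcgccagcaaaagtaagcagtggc
Apob, chr12:7977427-7977676: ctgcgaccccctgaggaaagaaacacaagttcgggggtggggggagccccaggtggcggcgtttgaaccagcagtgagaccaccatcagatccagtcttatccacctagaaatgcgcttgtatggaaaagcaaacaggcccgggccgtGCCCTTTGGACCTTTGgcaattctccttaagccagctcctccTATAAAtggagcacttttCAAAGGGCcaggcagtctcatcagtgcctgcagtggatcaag
The window of Apoa1 held no match to either motif. The window of Apob held 3 matches to CAAAGNNC. GCCCTTTG and GACCTTTG (on the opposite strand) lay side by side, 102 and 94 bases before the end of the window. CAAAGGGC lay 42 bases and TATAAA 60 bases before that end. The window of Apob ran to 7977676, past the start of the gene in RefSeq at 7977629, and CAAAGGGC lay past that gene start. The window of Apoa1 ended just before its gene start at 46228630. Of all 32851 windows of this length, 15.4% held CAAAGNNC and 12.4% held TATAAA. Windows were found for 8 of the 10 members, not for Apoc1 or Apoc3, and CAAAGNNC was also present in a window of Apoc2, Apoa4, and Apoh. A match of letters describes the window and shows no binding. A window without a match may still hold an HNF4-type element, since only the letters CAAAGNNC were searched.

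The libraries held 31073830 to 36205814 counted reads each. A count of 3 reads, the most that a count of 0 allows in a library, corresponded to 0.0829 to 0.0965 CPM, the reads of a gene scaled to a fixed library total (here without the TMM scaling used for the other CPM). These limits cover counting error only. For Sora-treated tumor 4, counts were worked back from its deposited FPKM. Without this tumor edgeR called 5 of 16319 genes (0.0306%) and DESeq2 478 of 15981 (2.99%), and the adjusted p without it is given with the calls below. Summed marker levels of T cells (266 to 296 CPM in control and 212 to 227 CPM in Sora-treated tumors) and fibroblasts (8404 to 8612 against 5846 to 7325 CPM) were lower in every Sora-treated tumor, those of adipocytes (25.9 to 42.3 against 43.1 to 70.9 CPM) were higher, and those of hepatoma cells (5031 to 6535 against 5046 to 5591 CPM), macrophages (2975 to 3347 against 2431 to 2982 CPM), endothelial cells (301 to 343 against 239 to 324 CPM), and skin and muscle (506 to 1166 against 828 to 1071 CPM) overlapped. Of the markers tested in edgeR, 1 of 9 for T cells (Cd8b1), 1 of 10 for fibroblasts (Postn), 0 of 10 for endothelial cells, 0 of 7 for adipocytes, and 0 of 10 for skin and muscle were called (3.29% of all genes). Of 12 hepatoma cell markers, 1 was called higher (Hnf4a) and 1 lower (Alb). Cd8b1 and Postn were lower (adjusted p without Sora-treated tumor 4, 0.089 and 0.097). DESeq2 called 3 T cell markers and 4 fibroblast markers lower, 2 adipocyte markers (Cfd and Plin4) higher, and 0 endothelial or skin and muscle markers, and without Sora-treated tumor 4 it called 2, 4, 1, and 0. It called 1 hepatoma cell marker higher and 1 lower, and 1 and 2 without that tumor. Over all genes DESeq2 called 7.71%, and 2.99% without that tumor. All 7 adipocyte markers had an edgeR log2 fold change above 0 (median 0.73). No marker on these lists was at 0 in all tumors, while 1 macrophage marker (Vsig4) and 1 adipocyte marker were under 1 CPM in each. Their part in the results was not tested.

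Apoe was by far the most abundant apolipoprotein. On the FPKM scale, which divides counts by gene length and total, control tumors 1, 3, and 4 had 902, 1100, and 966, while Sora-treated tumors 2, 3, and 4 had 1097, 1347, and 1099. It made up 95.4% to 96.3% of the summed FPKM of the members in control tumors and 92.4% to 95.9% in Sora-treated tumors. Apoa1 came next with 20.6 to 24.9 FPKM in control tumors and 27.7 to 65.1 FPKM in Sora-treated tumors. Its share of the sum was 1.80% to 2.46% in control tumors and 1.97% to 5.47% in Sora-treated tumors.

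Apoc1 followed in control tumors with 10.8 to 12.1 FPKM, above Apob with 5.90 to 8.53 FPKM. In Sora-treated tumors the ranges of Apoc1 (12.4 to 16.1 FPKM) and Apob (8.38 to 12.5 FPKM) overlapped. Apoc2 (1.44 to 1.77 FPKM) and Apoa2 (0.974 to 1.54 FPKM) overlapped in control tumors and again in Sora-treated tumors, where they ranged from 1.12 to 1.94 FPKM and from 1.09 to 1.66 FPKM. Apom, Apoh, and Apoc3 stayed under 0.32 FPKM in each tumor. The deposited FPKM rest on 1 length per gene, 13957 bases for Apob and 554 bases for Apoc1, so an error in a length would move a gene in this order but not between tumors.

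**Figure D1:**
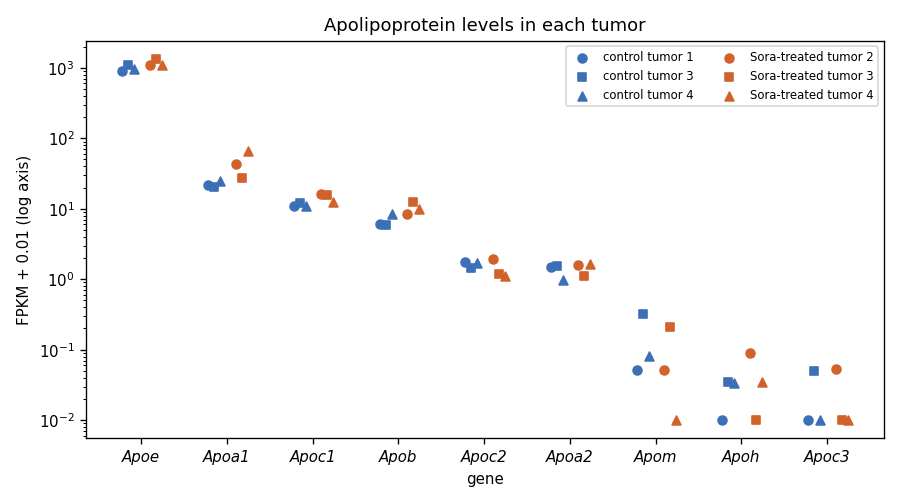
FPKM + 0.01 on a log axis (y) of the 9 apolipoprotein genes found (x), with 1 point per tumor (3 control and 3 Sora-treated). Apoe stands apart at 902 to 1347 FPKM, Apoa1, Apoc1, and Apob lie between 5.90 and 65.1 FPKM, and Apom, Apoh, and Apoc3 lie near 0.

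Among the structural proteins of HDL and VLDL, Apoa1 rose and Apoa2 showed no difference that passed the test. Apoa1, the main protein of HDL and an activator of lecithin cholesterol acyltransferase, was at 21.2, 20.8, and 24.4 CPM in control tumors 1, 3, and 4, and at 42.5, 27.1, and 66.2 CPM in Sora-treated tumors 2, 3, and 4 (TMM-scaled). The groups did not overlap, and the Sora-treated tumors were far more spread, the highest being 2.45 times the lowest against 1.17 times in control tumors. The mean was 22.1 ± 1.97 CPM (SD, n = 3) in control and 45.2 ± 19.7 CPM (SD, n = 3) in Sora-treated tumors, a log2 fold change of 1.03 (SE 0.24; adjusted p = 0.047, edgeR). It was the only one of the 6 tested apolipoproteins called higher at an adjusted p under 0.05, and 0 were called lower. Over all genes 3.29% were called, 1.94% higher and 1.34% lower. With a change of more than 2-fold also asked for, Apoa1 was still the only member called, where all genes gave 0.418% higher and 0.333% lower.

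The call of Apoa1 rested on the setting. Without Sora-treated tumor 4, its highest sample, the log2 fold change was 0.65 with an adjusted p of 0.15 in edgeR, and DESeq2 gave an adjusted p of 0.063 with all 6 tumors. DESeq2 without that tumor called Apoa1 (log2 fold change 0.65, adjusted p = 0.019).

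Apob, the scaffold of VLDL and LDL, was at 82.5, 84.3, and 118 CPM in control tumors and at 116, 172, and 140 CPM in Sora-treated tumors. Control tumor 4 lay just above Sora-treated tumor 2, so the groups overlapped. Means were 95.0 ± 20.1 and 143 ± 28.2 CPM (SD, n = 3 each), and the log2 fold change of 0.59 (SE 0.16) did not pass in edgeR (adjusted p = 0.070). DESeq2, the tool the paper names for its differential expression, gave Apob an adjusted p of 0.0014, so that the 2 tools each called 1 apolipoprotein but different genes. In DESeq2, 7.71% of all genes were called. Without Sora-treated tumor 4, the adjusted p of Apob was 0.21 in edgeR and 0.43 in DESeq2.

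Apoa2, the second protein of HDL, was at 1.37, 1.47, and 0.904 CPM in control tumors and 1.47, 1.01, and 1.6 CPM in Sora-treated tumors, on 33 to 53 reads. The groups overlapped throughout, and the log2 fold change was 0.13 (SE 0.34; adjusted p = 0.89, edgeR). The SE of Apob was 0.16, so Apoa2 was measured with less precision.

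Apoe, Apoc1, and Apoc2 did not pass the test in either direction. Apoe, the ligand by which remnant particles are taken up through cell-surface receptors, was at 2142, 2749, and 2339 CPM in control tumors and at 2658, 3254, and 2761 CPM in Sora-treated tumors. Control tumor 3 lay among the Sora-treated tumors. Means were 2410 ± 309 and 2891 ± 319 CPM (SD, n = 3 each), with a log2 fold change of 0.26 (SE 0.12; adjusted p = 0.28, edgeR). With 68807 to 109304 reads per tumor, spread between tumors and not counting set this error.

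Apoc1, which slows the uptake of remnant particles by receptors, was at 5.95, 6.87, and 5.92 CPM in control and 8.85, 8.60, and 7.06 CPM in Sora-treated tumors. The groups did not overlap, although control tumor 3 and Sora-treated tumor 4 lay close together. The log2 fold change of 0.39 (SE 0.16) had an adjusted p of 0.23 in edgeR. Apoc2, the cofactor that lipoprotein lipase needs, was at 1.40, 1.20, and 1.34 CPM in control and 1.57, 0.953, and 0.935 CPM in Sora-treated tumors. It was the only tested member with a fold change below 0 (log2 fold change -0.19, SE 0.34; adjusted p = 0.83, edgeR). In GENCODE M21, 79.5% of the exon bases of Apoc2 are shared on the same strand with a readthrough gene, Gm44805, which was not analysed here. Whether reads were shared between them is not known.

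**Figure D2:**
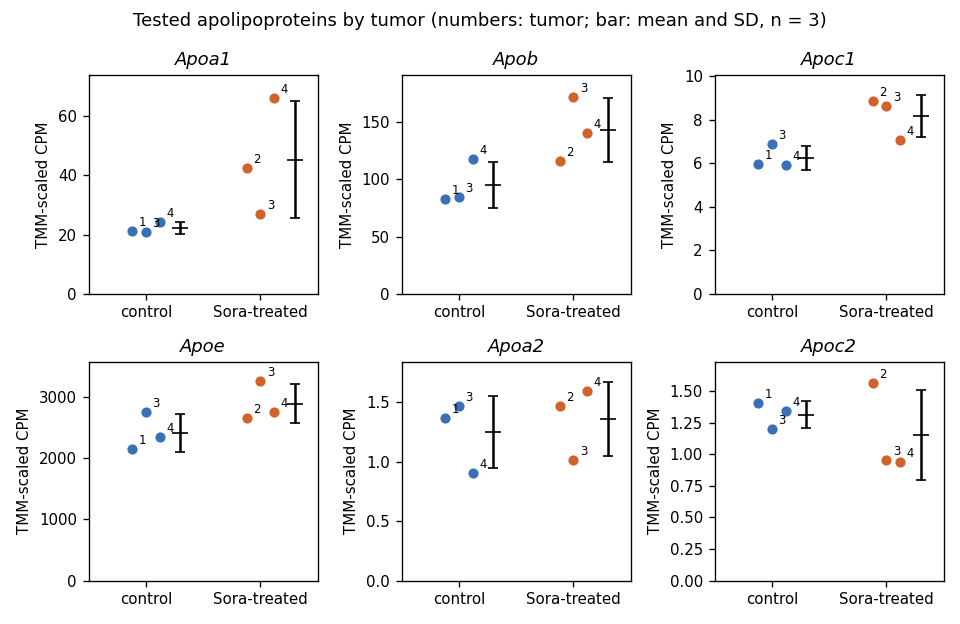
TMM-scaled CPM (y) of the 6 tested apolipoproteins in the control and Sora-treated tumors (x), with points numbered by tumor and bars for the mean and SD (n = 3 per group). Apoa1 and Apoc1 show no overlap between the groups, and Sora-treated tumor 4 is the highest for Apoa1 (66.2 CPM) while Sora-treated tumor 3 is the highest for Apob (172 CPM) and Apoe (3254 CPM).

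The 3 genes that did not pass the filter were nearly silent. Apoc3, an inhibitor of lipoprotein lipase that hepatocytes make in large amounts, had 0, 1, and 0 reads in control tumors, as against 1, 0, and 0 reads in Sora-treated tumors. Apoh, a plasma glycoprotein that binds phospholipids, had 0, 1, and 1 reads in control and 3, 0, and 1 reads in Sora-treated tumors. Both genes thus lay at or under the level of 3 reads in each tumor, and no fold was computed. Apom, which carries sphingosine-1-phosphate on HDL, had 1, 8, and 2 reads in control and 1, 5, and 0 reads in Sora-treated tumors. The near absence of Apoc3 stood beside its neighbor Apoa1 on chromosome 9, which had 678 to 2193 reads, and Apoa5 of the same cluster had 0 to 5 reads.

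Across the 6 tested members, 5 log2 fold changes were above 0 and 1 below, with a median of 0.32, while 49.9% of all genes were above 0 and the median over all genes was 0.00. At an unadjusted p under 0.05, 4 were higher (Apoa1, Apob, Apoc1, and Apoe) and 0 lower, where all genes gave 8.53% and 8.69%. The groups did not overlap for 2 members, both higher in Sora-treated tumors, where all genes gave 10.6% higher and 11.6% lower. These counts describe genes that share tumors and partly share a cluster, and they carry no test.

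The tumor with the highest level differed between members. Among Sora-treated tumors, tumor 4 was the highest and tumor 3 the lowest for Apoa1 and Apoa2. Apob and Apoe were highest in tumor 3 and lowest in tumor 2, whereas Apoc1 and Apoc2 were highest in tumor 2 and lowest in tumor 4. For Apoc2, tumors 3 and 4 were nearly equal, on 32 and 31 reads, and Apoa2 rested on 34 to 53 reads in the Sora-treated tumors. Krt18, an epithelial keratin of the hepatoma cells, was highest in tumor 4 (1229 CPM) and lowest in tumor 3 (879 CPM), as Apoa1 was, but control tumor 3 was its highest control.

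Of 17 other ways of processing the data, 6 left Apoa1 with an adjusted p under 0.05 and 3 did so for Apob, and in all 17 the log2 fold changes of Apoa1, Apob, Apoc1, and Apoe were above 0. No setting called Apoc1, Apoe, Apoa2, or Apoc2.

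**Figure D3:**
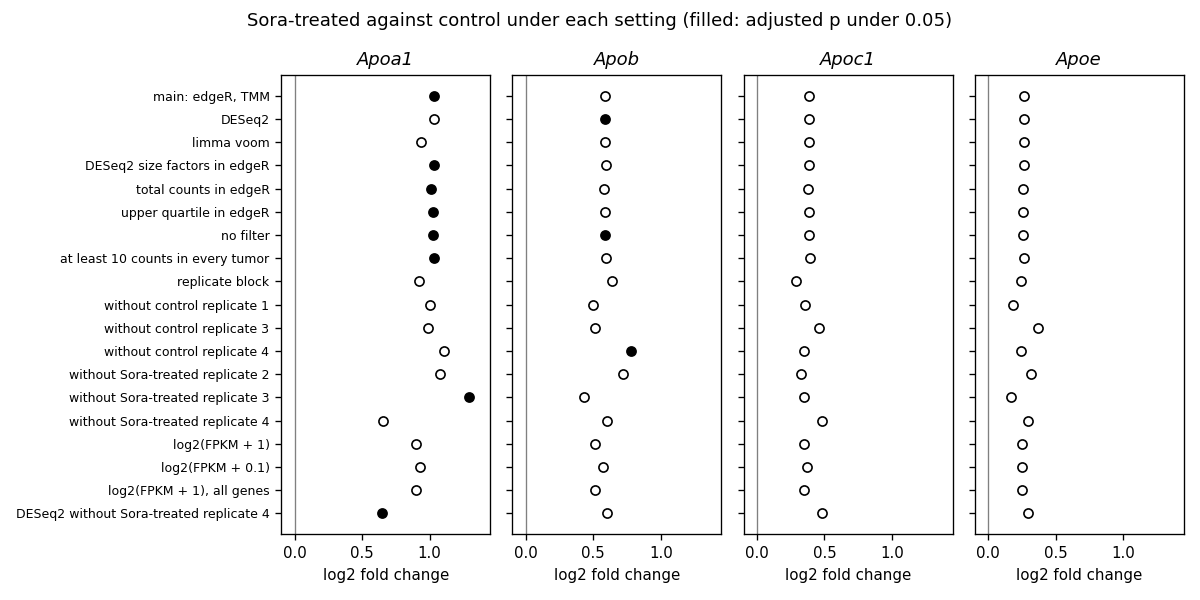
Log2 fold change of Sora-treated against control tumors (x) under each setting (y) for 4 apolipoproteins, with filled points where the adjusted p was under 0.05. The values of Apoa1 run from 0.65 to 1.29 and those of Apob from 0.43 to 0.78, and Apoa1 has more filled points than Apob.

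Apolipoproteins are made, lipidated, and cleared by the products of other genes, which were followed as 5 lists of other apolipoproteins, receptors, assembly and export, plasma enzymes, and hepatic transcription factors. Of their 95 genes 87 were tested, 1 was called higher and 3 lower in edgeR, 7 higher and 8 lower in DESeq2 (1 and 2 without Sora-treated tumor 4), and 39 log2 fold changes were above 0 and 48 below (median -0.02). Over all genes edgeR called 1.94% higher and 1.34% lower, and 49.9% of log2 fold changes were above 0. The share called by DESeq2 over all genes was 7.71%, and 2.99% without Sora-treated tumor 4. Other apolipoproteins gave 0 calls in 11 genes tested. Apoc4, of the chromosome 7 cluster, was at 15.3 CPM in control and 14.3 CPM in Sora-treated tumors on average (log2 fold change -0.10, adjusted p = 0.73), and Clu, the chaperone clusterin or ApoJ, was at 427 and 450 CPM (0.08, adjusted p = 0.81).

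Among 20 receptors and their regulators, edgeR called 0 higher and 1 lower, whereas DESeq2 called 4 higher and 3 lower (7.71% of all genes were called). Without Sora-treated tumor 4, DESeq2 called 0 higher and 1 lower, Sort1. At an unadjusted p under 0.05 in edgeR, 8 were higher and 4 lower (8.53% and 8.69% of all genes), and the groups did not overlap for 7 higher and 3 lower (10.6% and 11.6% of all genes). Sort1, the sorting receptor sortilin that binds ApoB-containing particles inside the secretory pathway, fell from 78.3 to 57.2 CPM (log2 fold change -0.45, adjusted p = 0.025; 0.13 without Sora-treated tumor 4). Its values were 76.3, 75.4, and 83.0 CPM in control tumors and 55.7, 64.0, and 51.9 CPM in Sora-treated tumors, without overlap. Lsr, the lipolysis-stimulated receptor, was at 126 and 150 CPM (log2 fold change 0.25, adjusted p = 0.15). Genes called by DESeq2 but not by edgeR were named after their values were seen. Among those higher were Vldlr, the VLDL receptor (log2 fold change 0.39; adjusted p = 0.0090 in DESeq2, 0.078 in DESeq2 without Sora-treated tumor 4, and 0.070 in edgeR), and Sdc1, a heparan sulfate proteoglycan that binds remnants (0.38; 0.0047, 0.11, and 0.061). Besides Sort1, those lower were Cd36, a fatty acid and scavenger receptor (-0.45; 0.015, 0.22, and 0.10), and Sorl1, a sorting receptor that binds ApoE (-0.33; 0.024, 0.24, and 0.079).

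Among the genes of lipoprotein assembly and lipid export, 19 of 21 were tested and 1 was called, lower. Abcg1, which exports cholesterol to HDL, fell from 64.7 to 46.6 CPM (log2 fold change -0.47, adjusted p = 0.039; 0.19 without Sora-treated tumor 4). P4hb, the small subunit of the microsomal triglyceride transfer protein complex and a disulfide isomerase, had a log2 fold change of -0.02 (adjusted p = 0.94), and the disulfide isomerase Pdia3 one of -0.10 (adjusted p = 0.55).

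Among the plasma lipid enzymes and their inhibitors, 14 of 16 were tested and edgeR called 1, also lower, whereas DESeq2 called 1 higher (Angptl4, an inhibitor of lipoprotein lipase) and 3 lower (Lpl, Lipa, and Pon3). Without Sora-treated tumor 4, DESeq2 called Lpl and none of the others (adjusted p = 0.19 for Angptl4, 0.055 for Lipa, and 0.089 for Pon3). Lpl, lipoprotein lipase, which Apoc2 activates, fell from 356 to 250 CPM (log2 fold change -0.51, adjusted p = 0.023; 0.13 without Sora-treated tumor 4). Macrophages and adipocytes also make Lpl. Pon2, an intracellular paraoxonase, had a log2 fold change of -0.14 (adjusted p = 0.35).

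Among 23 hepatic transcription factors tested, Hnf4a was the only gene called in edgeR, and DESeq2 also called Nr1d1 higher and Nr1h3 lower, but neither without Sora-treated tumor 4 (adjusted p = 0.31 for each). Hnf4a was at 72.6, 89.5, and 78.6 CPM in control tumors and at 149, 112, and 156 CPM in Sora-treated tumors, without overlap. The mean rose from 80.2 ± 8.61 to 139 ± 23.9 CPM (SD, n = 3 each; log2 fold change 0.80, SE 0.12; adjusted p = 0.013, edgeR). The adjusted p without Sora-treated tumor 4 was 0.082 in edgeR (log2 fold change 0.70) and 0.00012 in DESeq2. Of the 17 other settings, 13 kept the adjusted p of Hnf4a under 0.05. Among Sora-treated tumors, tumor 4 was the highest and tumor 3 the lowest for Hnf4a, as for Apoa1, but control tumor 3 was the highest control for Hnf4a and the lowest for Apoa1. Cebpb had a log2 fold change of 0.26 (adjusted p = 0.16) and Srebf2, the regulator of sterol genes, one of 0.19 (adjusted p = 0.27).

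Other secreted liver proteins did not move as one group. Of 13 plasma carrier proteins tested, edgeR called 1 higher and 3 lower (median log2 fold change -0.29, 11 below 0), and DESeq2 also called Rbp4 higher, though not without Sora-treated tumor 4. Without that tumor DESeq2 called 1 carrier protein higher and 3 lower (2.99% of all genes called). With all tumors, 1.94% of all genes were called higher and 1.34% lower in edgeR, and 7.71% were called in DESeq2. Of all genes 49.9% had a log2 fold change above 0. Alb, albumin, fell from 3198 to 2188 CPM (log2 fold change -0.55, adjusted p = 0.041; 0.18 without Sora-treated tumor 4). Ttr, transthyretin, fell from 9.42 to 2.13 CPM (-2.15, adjusted p = 0.0056; 0.046 without Sora-treated tumor 4), and Cp, ceruloplasmin, from 251 to 137 CPM (-0.87, adjusted p = 0.015; 0.096 without it).

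Igfbp1, a binding protein of insulin-like growth factors, rose from 951 to 1533 CPM (log2 fold change 0.69, adjusted p = 0.023; 0.12 without Sora-treated tumor 4). Of 10 acute-phase proteins tested, 2 were called higher and 1 lower in edgeR and in DESeq2, and DESeq2 called 3 and 2 without Sora-treated tumor 4. The shares called over all genes were 3.29% in edgeR, 7.71% in DESeq2, and 2.99% in DESeq2 without that tumor. Hp, haptoglobin, rose from 40.1 to 67.8 CPM (0.76, adjusted p = 0.021; 0.070 without Sora-treated tumor 4) and Lcn2, lipocalin 2, from 2.20 to 5.13 CPM (1.22, adjusted p = 0.019; 0.066 without it). Lbp, the lipopolysaccharide-binding protein, fell from 280 to 172 CPM (-0.71, adjusted p = 0.024; 0.12 without it). Fgb, the fibrinogen beta chain, had a log2 fold change of -0.21 (adjusted p = 0.40).

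Levels of other hepatocyte genes covered a wide range. On the FPKM scale Alb reached 974 to 1680 and was of the order of Apoe, while Fabp1, the liver fatty acid-binding protein, was at 0 to 0.189 and Ahsg, fetuin A, at 0.0204 to 0.168.

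**Figure D4:**
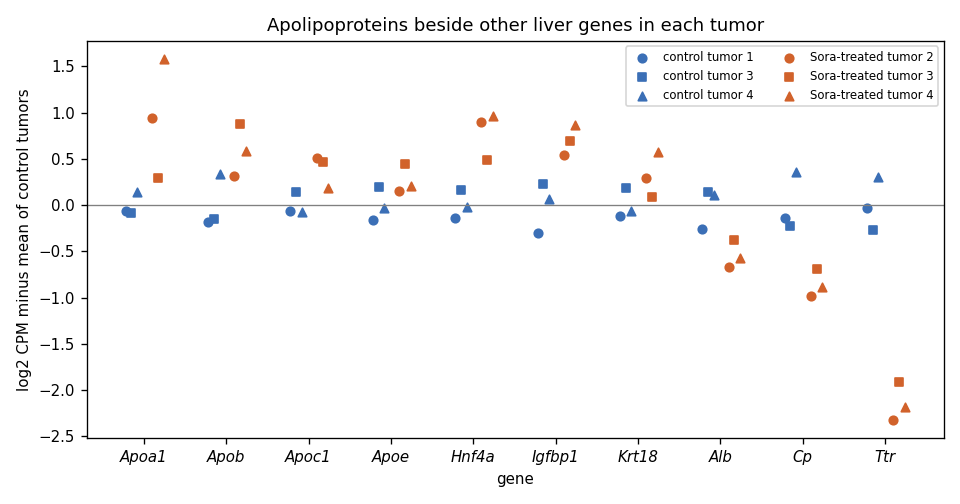
Log2 CPM of each tumor minus the mean of the control tumors (y) for apolipoproteins and other liver genes (x), with 1 point per tumor. Apoa1 and Hnf4a lie above the control tumors, and Alb, Cp, and Ttr below them in each of the 3 Sora-treated tumors.

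Ratios between 2 genes within a tumor do not depend on how libraries are scaled, and 8 of them were computed after the values were seen. The ratio of Apoe to Alb was 0.808, 0.783, and 0.681 in control tumors and 1.33, 1.33, and 1.30 in Sora-treated tumors, a mean log2 difference of 0.81. The ratio of Apoa1 to Alb differed by 1.48 and that of Apob to Alb by 1.13 on the log2 scale. Each of these was higher in 3 of 3 Sora-treated tumors than in any control tumor (two-sided exact permutation p = 0.1, the lowest value possible with 20 labelings of 3 against 3 tumors, and 0.133 after Benjamini-Hochberg adjustment over the 8 ratios).

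Against Hnf4a, Apoa1 showed overlapping groups. The ratio of Apoa1 to Hnf4a was 0.292, 0.232, and 0.310 in control and 0.284, 0.242, and 0.423 in Sora-treated tumors (log2 difference 0.16, exact permutation p = 0.7). The ratio of Apoa1 to Krt18 differed by 0.62 without overlap (exact permutation p = 0.1), although control tumor 4 and Sora-treated tumor 3 were nearly equal at 0.0308. The ratio of Apoa1 to Apoe differed by 0.68 with overlap (exact permutation p = 0.3).

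Since macrophages also make Apoe, it was set beside their markers. Of 14 macrophage markers tested, 13 had a log2 fold change below 0, and the median was -0.27 (49.9% of all genes were above 0). In edgeR 1 was called lower, and DESeq2 called 5 lower (Mertk, Csf1r, C1qa, C1qb, and C1qc), of which it called Mertk alone without Sora-treated tumor 4. Over all genes edgeR called 1.34% lower. DESeq2 called 7.71% of all genes in either direction, and 2.99% without that tumor. The marker called by edgeR was Mertk, the receptor for dying cells, which fell from 43.6 to 32.0 CPM (log2 fold change -0.45, adjusted p = 0.031; 0.16 without Sora-treated tumor 4). C1qb, a chain of complement C1q, had a log2 fold change of -0.34 (adjusted p = 0.15 in edgeR and 0.035 in DESeq2) and Lyz2, lysozyme, one of -0.09 (adjusted p = 0.79).

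The ratio of Apoe to C1qb was 5.83, 6.41, and 7.27 in control tumors and 9.87, 9.68, and 9.93 in Sora-treated tumors, a mean log2 difference of 0.60 (exact permutation p = 0.1). The ratio of Apoe to Lyz2 was 2.25, 2.50, and 2.14 in control and 3.35, 2.84, and 2.68 in Sora-treated tumors (0.36, exact permutation p = 0.1). Both ratios were higher in every Sora-treated tumor. Which cells of the tumors made Apoe was not measured.

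**Figure D5:**
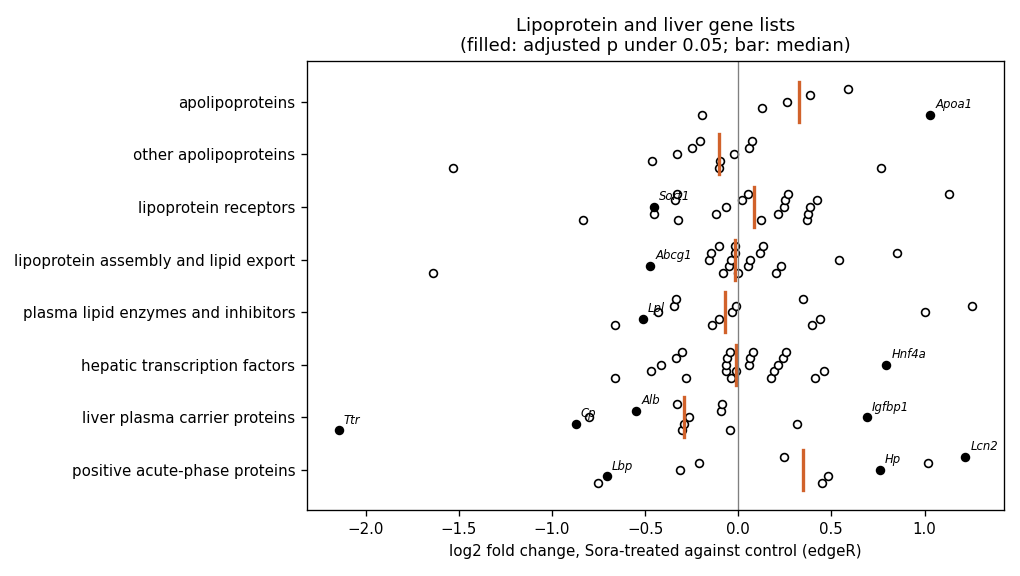
Log2 fold change of Sora-treated against control tumors (x) for the tested genes of the apolipoprotein, lipoprotein pathway, carrier protein, and acute-phase lists (y), with 1 point per gene and filled points for an adjusted p under 0.05 (edgeR). Of the 6 apolipoproteins 5 lie above 0, whereas 11 of 13 liver plasma carrier proteins lie below it.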

How the data were processed

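RNA was sequenced from 3 control and 3 Sora-treated tumors. The authors deposited counts, whole numbers of reads per gene, for 5 tumors, and FPKM, counts divided by gene length and total, for all 6. The methods text names Bowtie2 and GRCm38, whereas the submitters' processing notes name fastp, HISAT2, HTSeq, R 3.2.0, DESeq2, and GRCm39 without roles, so the coordinates used for counting are not given, and the promoter windows are placed on GRCm38.p6 only as sequence context. For its differential expression the paper names DESeq2 at default settings, with a change of more than 2-fold and an adjusted p under 0.05. Strand use in counting is not given in the sources used here. For Sora-treated tumor 4, counts were worked back from FPKM with the gene lengths implied by the other tumors. The same step returned each of the 5 known tumors exactly for 20969 to 21229 genes. For tumor 4, 342 genes with 512 reads (0.0015%) had no length and were left at 0.

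Genes reaching 10 counts in 3 or more tumors were tested with edgeR 4.0.16 (quasi-likelihood, TMM, robust=FALSE; R 4.3.3), p-values were adjusted by the Benjamini-Hochberg method, and the threshold was 0.05. CPM are TMM-scaled. Alternatives were DESeq2 1.42.0, limma 3.58.1 (voom, or on log2 FPKM computed from the FPKM the authors deposited, with a pseudocount of 1 or 0.1), other scalings and filters, a replicate block, and leaving out each tumor. DESeq2 without Sora-treated tumor 4 was added after seeing the data. On simulated counts edgeR called 186 of 195 changed genes with 10 false calls. Ratios were tested with scipy 1.17.1.

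The members and the 14 lists were chosen with earlier results of these data known. Named were all members and, in each other list, every gene with an adjusted p under 0.05 and the 2 tested genes with the highest mean FPKM. A gene that this rule names is not reported here. Fabp1, Ahsg, and Apoa5 were added after their values were seen. The marker lists of T cells, fibroblasts, endothelial cells, adipocytes, and skin and muscle are given as sums. Promoter windows are from RefSeq (GRCm38.p6).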

Additional observations from a re-analysis of the deposited data

How the results depend on the processing

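The number of genes called changed with the setting: 321 were higher and 222 lower in edgeR, 619 and 575 in DESeq2, 570 and 577 without a filter, 180 and 106 with log2(FPKM + 1), 166 and 86 with log2(FPKM + 0.1), and 0 and 0 with log2(FPKM + 1) over all genes. Leaving out 1 tumor gave 4 to 574 higher and 1 to 571 lower. Of the apolipoproteins 1 was called higher in edgeR, 2 without a filter, 0 in limma voom and in each of the 3 FPKM settings, and 0 to 1 when 1 tumor was left out. No setting called one lower. The cause was not tested. Apoa1 had an adjusted p of 0.0027 without Sora-treated tumor 3, and leaving out any other tumor moved it to between 0.10 and 0.15. Apob passed without control tumor 4 (adjusted p = 0.048).

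Control and Sora-treated tumors share only the numbers 3 and 4, and deviations of same-numbered tumors correlated at -0.0641 and -0.0662, so the numbers were not read as pairs. With a replicate block, 80 genes were higher and 45 lower and 0 apolipoproteins were called higher (Apoa1 adjusted p = 0.062, Hnf4a 0.079).

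Log2 fold changes of genes that were not called changed sign near 0. Leaving out 1 tumor put Apoa2 between -0.064 (without control tumor 4) and 0.297, with -0.007 without Sora-treated tumor 4, and -0.010 in DESeq2 without that tumor. Clu was at -0.029 without control tumor 3, -0.043 without Sora-treated tumor 4, and -0.046 in DESeq2 without it. P4hb was at 0.030 without control tumor 3, Lyz2 between -0.206 and 0.052 (without Sora-treated tumor 2), and Dcn, a fibroblast marker, between -0.021 (without control tumor 1) and 0.067, with -0.002 without Sora-treated tumor 4, and -0.005 in DESeq2 without it. Apoa2 and Apoc2 rested on 31 to 53 reads per tumor, and no depth setting was run.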
